A study of Mus musculus with 8 samples.

Results

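Uggt2 and 9 other genes of protein folding and stress in the endoplasmic reticulum (ER) were followed through retinas of aged mice. The genes are Uggt1, Uggt2, Hspa5, Ddit3, Atf4, Xbp1, Calr, Canx, Hsp90b1 and Pdia4. Their probes were found by matching the transcript accession of each probe to RefSeq gene names, which gave 19 of the 56605 probes of the array for 10 of the 22911 genes it names. All 19 were well above background on all 8 arrays, so the filter on dim probes, which left 37085 probes, removed none of them. Uggt2 was chosen by its measured values in the comparison described here, since its probes differed between genotypes in opposite directions. Its values and calls are therefore a description only. A permutation test of its relation with Hspa5 was run and counted in a correction below, and that relation is also a description only. The other 9 genes were chosen by their place in the same pathway, with earlier results of these data known.

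Whole retina was taken from mice of 46 to 55 weeks by the sample labels, either homozygous Mrp4 knockout (Mrp4-null) or wild-type. The methods give a C57BL/6J background for the knockout and do not state that of the wild-type mice. Mrp4, the product of Abcc4, is a membrane transporter that exports organic anions and drugs from cells, and neither the labels nor the methods restrict the knockout to a cell type. RNA of 4 samples of each genotype was labelled with Cy3 and hybridized to 1 one-color Agilent 8x60K array per sample. Tissue of 3 mice is named in the methods without a statement on pooling, so the p-values measure only the spread between these samples.

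The 8 arrays shared 1 slide, where the genotypes filled separate rows, so row and genotype cannot be told apart. Between 37342 and 39581 probes per array were well above background, and no spot was saturated. Abcc4, the targeted gene, was higher under the Mrp4-null label than in wild-type samples, at a normalized log2 signal of 10.75 ± 0.09 against 6.83 ± 0.29 (SD, n = 4 each). Whether the probe lies in the deleted part was not analysed here, and every direction below follows the labels as deposited. Y-linked genes were read above background in 3 wild-type samples and in 0 of those labelled Mrp4-null. Xist, which is transcribed from the inactive X chromosome of females, was read above background in 2 wild-type samples and in all 4 labelled Mrp4-null, so at least 1 wild-type sample read both. The part of sex in any difference was not tested. The 8 rod markers, all above background, averaged a log2 signal of 16.23 to 16.36 under the Mrp4-null label and of 16.22 to 16.33 in wild-type samples. In RNA of whole tissue, fewer cells of a type and less RNA per cell cannot be told apart.

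Secreted and membrane proteins fold in the ER, where most receive N-linked glycans. UGGT enzymes inspect a glycoprotein that has lost its last glucose and put a glucose back on one that is still misfolded, which returns it to the lectin chaperones calnexin (Canx) and calreticulin (Calr) for another round. When unfolded protein builds up, the sensors IRE1, PERK and ATF6 start the unfolded protein response, in which Xbp1 and Atf4 carry the signal to the nucleus, chaperones such as Hspa5 (BiP) rise, and Ddit3 (CHOP) rises under lasting stress. Photoreceptors make large amounts of the glycoprotein rhodopsin, and misfolded rhodopsin is a known cause of ER stress and rod death in the retina.

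Chaperone genes of this response share a promoter element, the ER stress response element (ERSE), to which ATF6 binds with the factor NF-Y. The RefSeq promoter of each of the 10 genes, from 250 bases before to 50 bases after the transcription start in GRCm38.p6, was searched on both strands for the letters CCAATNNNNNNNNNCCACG. Of all 32851 promoters of this length in the RefSeq table, 39 (0.119%) held them. Among the 10 genes, Hspa5, Calr and Canx held 1 match each and Hsp90b1 held 2, while Uggt1, Uggt2, Pdia4, Ddit3, Xbp1 and Atf4 held none. Matches began 65 bases before the start in Hspa5, 162 in Calr, 145 in Canx, and 212 and 107 in Hsp90b1. The letters TGACGTGG of the unfolded protein response element (in 0.676% of all promoters) and TGATGCAA of the amino acid response element (in 0.895%) were in none of the 10, so no match overlapped another. A match is a description of letters and not of a bound site. The 4 promoters with a match and that of Uggt2 are shown 5′ to 3′ on the strand of the gene, because they set the chaperones that share the element beside the gene whose probes differed. The matched ERSE letters are in capitals, on either strand. The intervals are chr2:34771840-34772139 (plus strand) for Hspa5, chr8:84846882-84847181 (minus) for Calr, chr10:86705395-86705694 (minus) for Hsp90b1, chr11:50325624-50325923 (minus) for Canx and chr14:119099385-119099684 (minus) for Uggt2.
Hspa5: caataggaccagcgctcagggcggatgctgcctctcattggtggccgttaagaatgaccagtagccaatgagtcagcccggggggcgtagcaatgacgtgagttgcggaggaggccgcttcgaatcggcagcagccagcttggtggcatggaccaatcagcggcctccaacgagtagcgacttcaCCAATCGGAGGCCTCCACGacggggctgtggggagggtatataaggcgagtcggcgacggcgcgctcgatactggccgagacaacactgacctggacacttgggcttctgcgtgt
Calr: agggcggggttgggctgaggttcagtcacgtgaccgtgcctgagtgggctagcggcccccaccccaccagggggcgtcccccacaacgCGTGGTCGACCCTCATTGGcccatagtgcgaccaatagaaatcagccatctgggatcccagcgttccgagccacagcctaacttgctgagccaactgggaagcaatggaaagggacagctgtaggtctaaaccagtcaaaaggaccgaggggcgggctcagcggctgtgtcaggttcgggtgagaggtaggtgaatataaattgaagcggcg
Hsp90b1: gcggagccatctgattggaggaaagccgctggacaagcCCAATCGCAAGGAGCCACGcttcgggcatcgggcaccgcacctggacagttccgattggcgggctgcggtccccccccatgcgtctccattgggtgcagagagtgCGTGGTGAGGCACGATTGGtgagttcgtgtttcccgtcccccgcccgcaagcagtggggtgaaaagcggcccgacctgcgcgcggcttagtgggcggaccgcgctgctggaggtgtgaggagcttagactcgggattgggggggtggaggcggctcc
Canx: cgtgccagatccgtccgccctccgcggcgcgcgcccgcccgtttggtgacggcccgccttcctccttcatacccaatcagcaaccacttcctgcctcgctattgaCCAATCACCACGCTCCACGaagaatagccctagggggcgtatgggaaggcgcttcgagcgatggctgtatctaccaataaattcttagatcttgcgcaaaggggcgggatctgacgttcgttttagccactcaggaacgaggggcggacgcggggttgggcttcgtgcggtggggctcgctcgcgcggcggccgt
Uggt2: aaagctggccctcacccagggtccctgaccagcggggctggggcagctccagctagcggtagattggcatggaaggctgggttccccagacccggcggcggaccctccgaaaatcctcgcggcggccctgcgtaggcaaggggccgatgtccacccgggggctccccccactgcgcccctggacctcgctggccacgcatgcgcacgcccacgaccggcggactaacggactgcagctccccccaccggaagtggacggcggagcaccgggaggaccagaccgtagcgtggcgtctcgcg

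The 3 probes of Uggt2, one of the pair of mouse glucosyltransferases that sense misfolded glycoproteins, carried the same RefSeq transcript accession and moved apart. One was 1.55-fold higher on the arrays labelled Mrp4-null, another was 1.56-fold lower and the third was 2.22-fold lower. After normalization, each of the 3 probes separated the genotypes without overlap. The probe sequences are not in the files used here, so the part of the transcript that each probe reads was not analysed here.

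Probe A_52_P297773 had normalized log2 signals of 8.08, 7.87, 7.90 and 8.08 on the arrays labelled Mrp4-null 1 to 4. On wild-type arrays 1 to 4 it had 7.14, 7.43, 7.44 and 7.37. The lowest array labelled Mrp4-null thus lay above the highest wild-type array. The means were 7.98 ± 0.11 and 7.35 ± 0.14 (SD, n = 4), a fitted log2 difference of 0.64 with a standard error of 0.10. In processed signal before normalization, its values were 314, 187, 273 and 297 under the Mrp4-null label against 154, 198, 141 and 139 in wild-type samples. There the genotypes overlapped, because array 2 labelled Mrp4-null fell below wild-type array 2. The 75th percentile of all signals on that array was 670, the lowest of the 8 arrays, which spanned 670 to 1068.

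Probe A_55_P2032024 went the other way, with 6.56, 6.67, 6.36 and 6.36 on the arrays labelled Mrp4-null. The wild-type arrays gave 7.76, 7.37, 7.80 and 7.62. The means were 6.49 ± 0.15 and 7.64 ± 0.19 (SD, n = 4), a log2 difference of -1.15 with a standard error of 0.12. Every wild-type array was above every array labelled Mrp4-null, and this also held in processed signal, at 84.8 to 107 against 166 to 235.

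Probe A_52_P398099 had 7.53, 7.71, 7.69 and 7.68 on the arrays labelled Mrp4-null. Its wild-type values were 8.32, 8.01, 8.47 and 8.37. The means were 7.65 ± 0.08 and 8.29 ± 0.20 (SD, n = 4), a log2 difference of -0.64 with a standard error of 0.11. The genotypes did not overlap here either, with wild-type array 2 nearest to the arrays labelled Mrp4-null.

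To be called, a probe had to differ by 1.5-fold or more with a Benjamini-Hochberg adjusted p under 0.05 in limma, p being adjusted over all 37085 probes. By that rule 2 of the 19 probes were called, A_52_P297773 as higher and A_55_P2032024 as lower. Both are Uggt2 probes, chosen by the same comparison, so these calls and those that follow describe them and are no test of them. Over all retained probes 202 (0.545%) were called, 95 (0.256%) as higher and 107 (0.289%) as lower. A_52_P398099 lay just outside the rule, past the fold threshold but not the threshold on p, and no member lay between it and the other 16 probes, whose largest fold was 1.18. The local pooled error (LPE) test named in the methods, held here to the same fold and adjusted p, called 232 probes (0.626%). Of these 1, A_55_P2032024, was a member. The methods give an LPE p under 0.05 and name no adjustment, so their count is not comparable with this one. The call of A_52_P297773 was lost when any of 7 of the 8 arrays was left out, every array except array 2 labelled Mrp4-null, whereas A_55_P2032024 stayed called without any single array. Among 5897 genes with more than 1 retained probe by accession, Uggt2 was the 1 gene (0.017%) with a probe called in each direction, which is what it was chosen for.

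**Figure D1:**
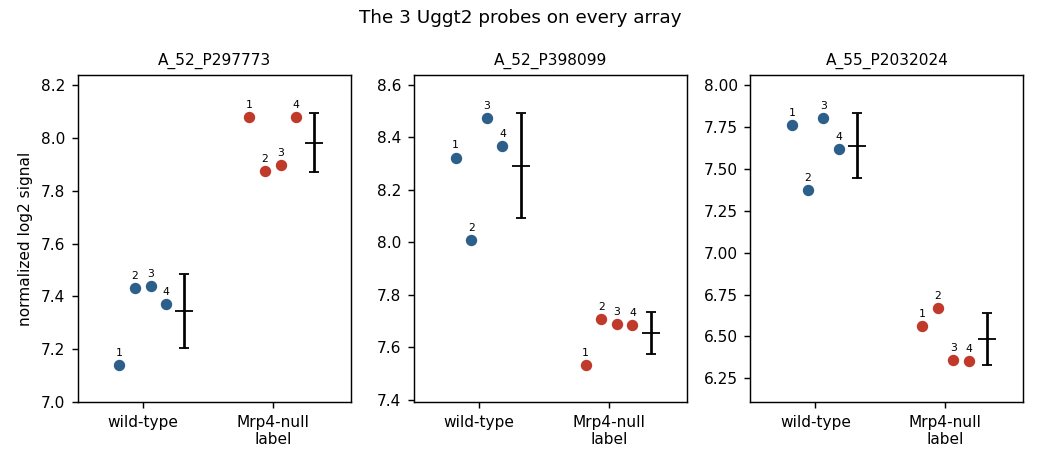
Normalized log2 signal (vertical axis, a range of its own in each panel) of the 3 Uggt2 probes on the 4 wild-type arrays (blue) and the 4 arrays labelled Mrp4-null (red), each point 1 array with its number, and bars giving the mean ± SD. A_52_P297773 is higher on all 4 arrays labelled Mrp4-null (7.87 to 8.08 against 7.14 to 7.44), while A_52_P398099 and A_55_P2032024 are lower on all 4.

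The probes were also compared within single arrays. In the log2 difference between a pair of probes on the same array, taken from the processed signals before normalization, any factor common to an array cancels. The difference of A_52_P297773 minus A_55_P2032024 was 1.55, 1.14, 1.51 and 1.77 under the Mrp4-null label against -0.61, 0.05, -0.35 and -0.25 in wild-type samples. That of A_52_P297773 minus A_52_P398099 was 0.57, 0.16, 0.21 and 0.40 against -1.18, -0.59, -1.01 and -1.01. Neither difference overlapped between the genotypes. This restates, within single arrays, the opposite directions for which Uggt2 was chosen, and it does not tell which of the probes changed. For the 2 probes that were lower, A_52_P398099 minus A_55_P2032024 was 0.99 to 1.37 under the Mrp4-null label against 0.57 to 0.76 in wild-type samples. The size of such a difference on a single array has no meaning by itself, because probes bind with different strength.

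Within a genotype, the spread of the 3 probes was ordinary for this array, with pooled standard deviations at percentiles 26.8, 37.2 and 45.7 of all retained probes. As a description over the 8 arrays, after the genotype mean was taken from each value, the correlation of A_52_P398099 with A_55_P2032024 was 0.62, and those of A_52_P297773 with the 2 were -0.25 and -0.35.

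Genes with a pattern most like that of each Uggt2 probe were found by Pearson's r over the 8 arrays among 23641 named probes of other genes. For A_52_P297773 they were Spen (r = 0.985), which encodes a transcriptional corepressor, Gm15319 (0.980), the bromodomain gene Brd7 (0.979), Ly6c1 (0.977), a surface antigen of endothelial and myeloid cells, and Eaf2 (0.972). The closest to A_52_P398099 were 2 probes of the mitochondrial iron importer Slc25a37 (0.964 and 0.962), followed by the ligand gene Wnt10a (0.959), Vps36 (0.955) and Hnrnpr (0.954). A_55_P2032024 was closest to 2 probes of Retn (0.988 and 0.986), which encodes resistin, then to Zfp787 (0.982), 4930480K23Rik (0.982) and Rnf150 (0.980). No gene of the 6 ER lists described below was among them. Those lists hold only 123 of the 23651 retained named probes, so that absence says little about Uggt2. These r take in the difference between the genotypes that each Uggt2 probe shows, and its part in them was not tested. The arrays they share make them descriptions only.

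Uggt2 lies on chromosome 14 with 3 protein-coding genes between it and Abcc4 in the order of the RefSeq table, Cldn10, Dzip1 and Dnajc3. Cldn10, named after its values were seen, was well above background on all 4 wild-type arrays and on 0 of those labelled Mrp4-null. There it was 2.50-fold lower, with each value set no lower than the dimmest signal read well above background on its array. Cldn10 passed the filter on dim probes through the wild-type arrays alone, and the background limit differs between spots. This value is therefore a description, and neither a bound nor a test. No probe of Dzip1 or Dnajc3 was called. Dnajc3, which lies next to Uggt2 and encodes a cochaperone of Hspa5, is described with the chaperones below.

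Apart from Uggt2, no member was called. Of the 16 probes of the other 9 genes, 0 were called by limma, 0 by the LPE test and 0 had an unadjusted p under 0.05 in limma, where 6.46% of all retained probes did. The genotypes overlapped on all 16, whereas they did not overlap on 4.79% of all retained probes. The log2 differences ran from -0.24 to 0.11, 6 above 0 and 10 below, with a median of -0.016 against -0.0093 over all retained probes. The 95% interval of the difference lay inside 1.5-fold in either direction for 15 of the 16 probes, and for 77.2% of all retained probes. The exception was Pdia4. For 8 of the 9 genes every probe thus bounded the difference inside 1.5-fold, as most retained probes of the array did. A p that misses the threshold does not show that the genotypes were alike.

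**Figure D2:**
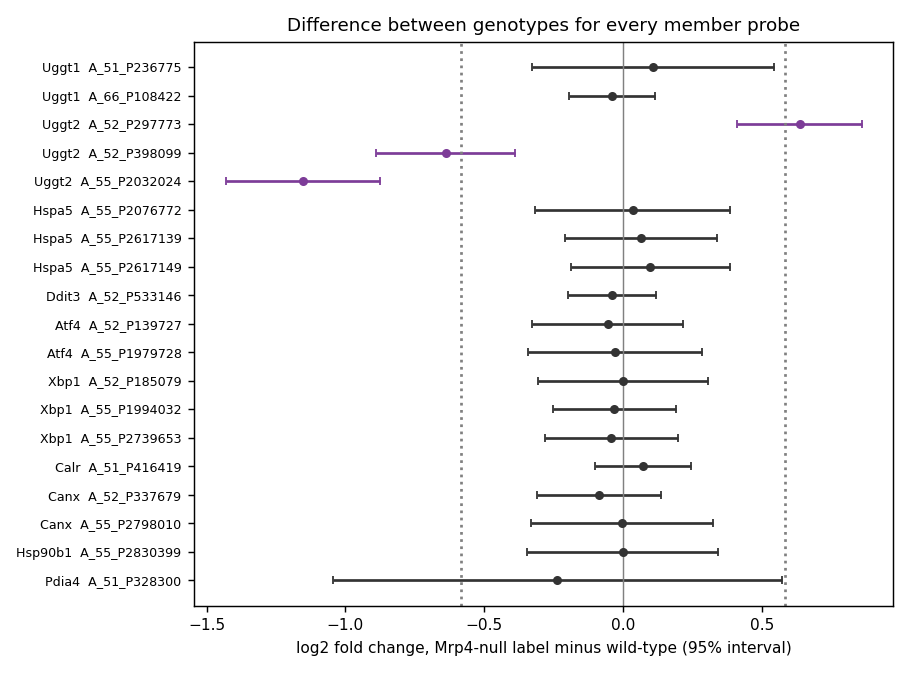
Fitted log2 difference (arrays labelled Mrp4-null minus wild-type, horizontal axis) of each of the 19 probes, with its 95% interval; dotted lines mark a fold change of 1.5 in either direction. The 3 Uggt2 probes (purple) lie on both sides of 0, at 0.64, -0.64 and -1.15, and the 16 other probes lie between -0.24 and 0.11 with intervals that all cross 0.

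Uggt1 is the other UGGT and does most of the glucose transfer to misfolded glycoproteins in mammalian cells. Its probe A_66_P108422 had 12.00, 12.03, 12.10 and 12.04 under the Mrp4-null label against 12.14, 12.05, 12.07 and 12.08 in wild-type samples. This was among the steadiest probes of the array, with a pooled standard deviation at percentile 0.80 of all retained probes, and its log2 difference of -0.04 had a 95% interval of -0.20 to 0.12. A rise or fall of Uggt1 on this probe to the size seen on any Uggt2 probe is outside that interval. The other Uggt1 probe, A_51_P236775, had 9.93, 10.53, 10.34 and 9.86 against 10.33, 9.74, 10.27 and 9.88. Here the difference was 0.11 with a wider interval of -0.33 to 0.55, and the spread within a genotype exceeded the difference between them.

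The probes of calnexin and calreticulin, the lectins that hold the glycoproteins UGGT sends back, had log2 differences of -0.09 to 0.07. Calr had 13.01, 12.86, 12.93 and 12.81 under the Mrp4-null label against 12.78, 12.87, 12.85 and 12.83 in wild-type samples, a log2 difference of 0.07 with a 95% interval of -0.10 to 0.24. Canx was read by 2 probes. A_52_P337679 had 14.08, 13.79, 14.07 and 14.15 against 14.13, 14.19, 14.00 and 14.12, a difference of -0.09 (-0.31 to 0.14). The second, A_55_P2798010, had 14.02, 14.09, 14.34 and 13.98 against 14.50, 13.98, 14.00 and 13.96, a difference of -0.0024 (-0.33 to 0.33). Its wild-type array 1 stood apart from the other 3, a departure that the first probe of Canx did not show.

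Hspa5, the ER chaperone whose level is the usual readout of the unfolded protein response, was read by 3 probes. A_55_P2076772 had 14.38, 13.91, 13.87 and 14.24 under the Mrp4-null label against 13.78, 14.09, 14.06 and 14.33 in wild-type samples. Its difference was 0.03 with a 95% interval of -0.32 to 0.39. On A_55_P2617139 the values were 11.70, 11.62, 11.29 and 11.37 against 11.27, 11.36, 11.57 and 11.53, and on A_55_P2617149 they were 11.38, 11.05, 10.86 and 11.05 against 10.77, 11.03, 11.08 and 11.07. The differences of these 2 probes were 0.06 (-0.21 to 0.34) and 0.10 (-0.19 to 0.39). All 3 probes were highest on array 1 labelled Mrp4-null and lowest on wild-type array 1. Their SD within a genotype was 0.14 to 0.25, wider than the differences of 0.03 to 0.10 between the genotypes.

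Hsp90b1 (GRP94), the ER member of the HSP90 family, carries the element at 2 places in the promoter shown above. It had 14.72, 14.24, 14.61 and 14.93 against 14.57, 14.78, 14.44 and 14.71. Both genotypes had almost the same mean, with a difference of -0.0013 and a 95% interval of -0.34 to 0.34.

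Pdia4 (ERp72), a protein disulfide isomerase, was the least steady of the 10 genes. Its values were 9.98, 8.81, 9.10 and 10.09 under the Mrp4-null label against 9.08, 10.22, 9.49 and 10.14 in wild-type samples. In each genotype 2 arrays lay between 9.98 and 10.22 and the other 2 between 8.81 and 9.49. The pooled standard deviation was at percentile 97.8 of all retained probes. The difference of -0.24 had a 95% interval of -1.05 to 0.57, which holds both no difference and a 1.5-fold fall. Leaving out 1 array moved it between -0.45 and -0.0070, the latter without array 2 labelled Mrp4-null.

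**Figure D3:**
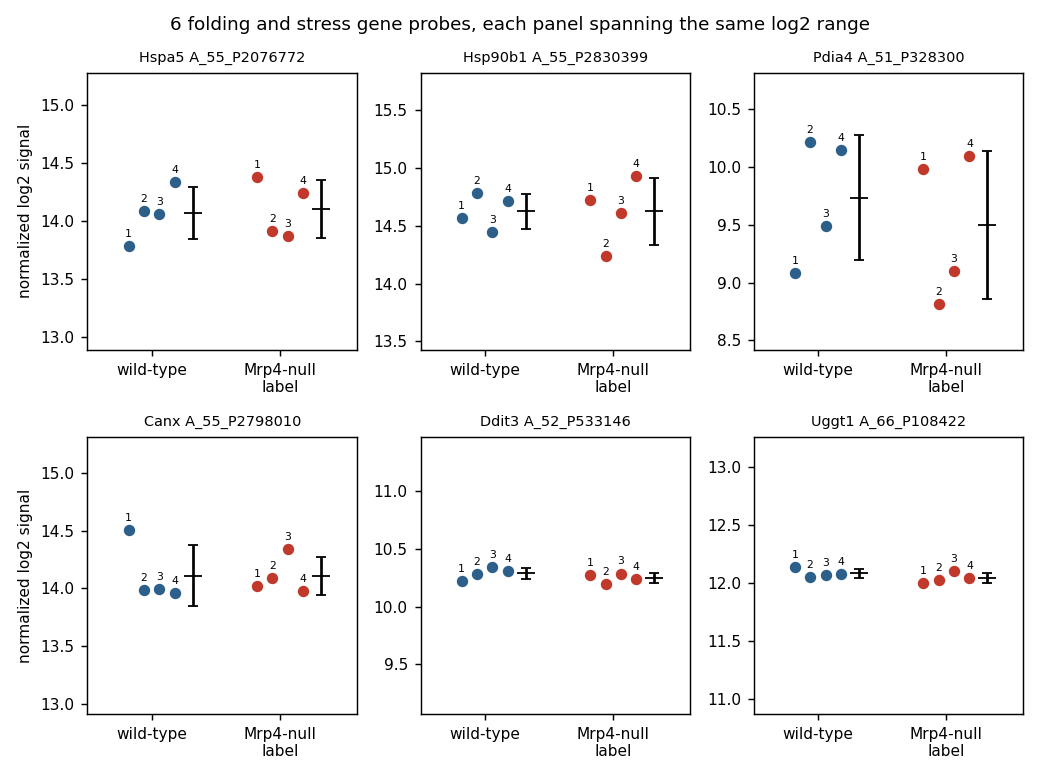
Normalized log2 signal (vertical axis, the same span of log2 units in every panel) of 1 probe each of Hspa5, Hsp90b1, Pdia4, Canx, Ddit3 and Uggt1 on the wild-type arrays (blue) and the arrays labelled Mrp4-null (red), each point 1 array with its number, and bars giving the mean ± SD (n = 4). The genotypes overlap in every panel, Pdia4 spans 8.81 to 10.22, and Uggt1 spans 12.00 to 12.14.

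The 6 probes of the transcription factors of the response had log2 differences of -0.06 to 0.00027. Ddit3, which promotes cell death under lasting ER stress, had 10.27, 10.19, 10.29 and 10.24 under the Mrp4-null label against 10.22, 10.28, 10.34 and 10.31 in wild-type samples. It was about as steady as the steadier Uggt1 probe, A_66_P108422, with a pooled standard deviation at percentile 1.25, and its difference was -0.04 with a 95% interval of -0.20 to 0.12. Atf4, which is translated when PERK is active, gave differences of -0.06 (95% interval -0.33 to 0.22) and -0.03 (-0.34 to 0.28) on its 2 probes, which ranged from 11.40 to 11.82 and from 16.32 to 16.83 over the 8 arrays. Because Atf4 is controlled largely at translation, its transcript alone is a limited readout.

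Xbp1, whose messenger RNA is spliced by IRE1, was read by 3 probes with differences of 0.00027, -0.03 and -0.04 and standard errors of 0.13, 0.10 and 0.11. Its brightest probe, A_55_P1994032, had 13.69, 13.44, 13.50 and 13.41 against 13.50, 13.40, 13.58 and 13.69. Each genotype thus held an array at the top and an array at the bottom of the range. Whether any Xbp1 probe tells the spliced form from the unspliced form was not analysed here.

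Some probes of the same gene rose and fell together over the arrays and others did not. Apart from Uggt2, 5 genes had more than 1 probe, which gave 9 pairs, tested with exact two-sided permutation tests and adjusted over the 9. Pearson's r passed for 5 pairs and Spearman's rho for 3. The pair of Atf4 probes had r = 0.85 (exact adjusted p = 0.0321), with a rho of 0.93. The Hspa5 pairs had r of 0.56, 0.82 and 0.86, with adjusted p of 0.187, 0.0162 and 0.0029 by the exact permutation test. Those of Xbp1 had 0.60, 0.90 and 0.81, with adjusted p of 0.173, 0.0116 and 0.0327. The last of these Xbp1 pairs rested on the 2 outermost arrays, since r was 0.08 without them and its rho was 0.38 (exact adjusted p = 0.438). Without the 2 outermost arrays r was also lower for the first Hspa5 pair (0.09), the second (0.60) and the first Xbp1 pair (0.28). It turned to -0.35 for Canx and was higher for Uggt1 (0.72). The Atf4 pair, the third Hspa5 pair and the second Xbp1 pair had 0.75, 0.73 and 0.77. The second Hspa5 pair did not pass by rho (0.74, exact adjusted p = 0.103). With all 8 arrays, Uggt1 (r = 0.33, exact adjusted p = 0.478) and Canx (r = 0.016, exact adjusted p = 0.973) were the 2 genes with no pair that passed.

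Hspa5 was set against the other 9 genes and against the 75th percentile of the signal of each array, each gene by its probe with the highest mean, to see whether the chaperones varied together from sample to sample. None of the 10 relations over the 8 arrays passed the Benjamini-Hochberg correction. The relation with Uggt2, a gene chosen by its values, counted among the 10 in that correction and is a description only. Pdia4 ran with Hspa5, with r = 0.84 (exact permutation p = 0.0168, adjusted 0.0842; rho 0.71, exact p = 0.0576, adjusted 0.287), and at 0.85 without the 2 arrays farthest from the median of Hspa5. Canx ran against it, with r = -0.80 (exact permutation p = 0.0072, adjusted 0.0722; rho -0.76, exact p = 0.0368, adjusted 0.287), and -0.78 without those arrays. This held for the brighter Canx probe alone, whose wild-type array 1 stood apart. The other Canx probe, A_52_P337679, had r = 0.32 with Hspa5 (exact permutation p = 0.486), the opposite sign. Hsp90b1 had r = 0.58 (exact permutation p = 0.133), and 0.65 without the 2 arrays. The values of 3 relations moved most without those 2 arrays. Calr had r = 0.34 (exact permutation p = 0.419) and -0.79 without them (exact permutation p = 0.0542), a turn of sign. Uggt2 went from -0.15 to 0.46, and the brighter Uggt1 probe from -0.65 (exact permutation p = 0.0845) to -0.11. The other Uggt1 probe, A_51_P236775, had r = -0.76 (exact permutation p = 0.0417, adjusted 0.139), and -0.77 without the 2 arrays. The 75th percentile of the array had r = 0.14 with Hspa5 (exact permutation p = 0.724). When deviations from the genotype means were used in place of the values, Pdia4 had r = 0.88 and the brighter Canx probe r = -0.80. Removing the means ties the deviations within a genotype to each other. The permutation test over all 8 arrays is then not exact, so no p is given and nothing is concluded from it. The other probes of these genes, 5 in all, were used in a comparison chosen after seeing the data, and 1 of them passed. Xbp1 had r = 0.54 with Hspa5 by its brightest probe, 0.85 by A_52_P185079 (exact adjusted p = 0.0429) and 0.79 by A_55_P2739653 (exact adjusted p = 0.0594). Atf4 had 0.52 by its brightest probe and 0.12 by the other (exact adjusted p = 0.760).

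The rest of the pathway was described by 6 lists holding 88 genes, of which 87 had a retained probe, 123 probes in all. Of the 87, 1 gene was called, against 105 of 16093 genes (0.652%) by any named probe, and the LPE test called 0. Unadjusted p in limma was under 0.05 for 8 of the 87 genes, and for 1272 of all 16093 (7.9%). Each gene taken by its brightest probe, 47 of 87 were higher on the arrays labelled Mrp4-null, as were 7445 of all 16093, and the median log2 difference was 0.0054, against -0.0099 over all 16093 genes.

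The called gene was Tnfrsf10b, a death receptor gene and known target of Ddit3. It had 7.94, 8.01, 8.27 and 7.95 under the Mrp4-null label against 7.54, 7.26, 7.08 and 7.09 in wild-type samples, with no overlap. The log2 difference was 0.80 with a standard error of 0.13 and an adjusted p of 0.0347 in limma. The call was lost when any of 7 of the 8 arrays was left out, every array except wild-type array 1, with adjusted p between 0.0223 and 0.290 over all alternatives. Like Uggt2 and Abcc4, the gene lies on chromosome 14. Of the other 17 measured genes of the list of Atf4 and Ddit3 targets, none was called, and 13 of all 18 were higher with a median of 0.05. Slc7a11, the cystine transporter, had the next largest difference at 0.57 (adjusted p = 0.707 in limma), with values of 5.62, 5.73, 6.69 and 5.81 against 5.49, 5.58, 5.42 and 5.06. Its difference was 0.33 without array 3 labelled Mrp4-null, its highest, and 0.32 with normexp background correction. That array also had the highest mean of the myeloid markers, at 9.65 against 8.53 to 8.80 on the other 7, and the part of these cells in the value was not tested.

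Among 15 ER chaperones and cochaperones, 0 were called and the median was 0.02. Dnajc3 (p58IPK), a cochaperone of Hspa5 and an inhibitor of PERK that lies next to Uggt2, had 8.64, 7.35, 7.80 and 8.59 under the Mrp4-null label against 8.56, 9.22, 8.61 and 9.17 in wild-type samples. The difference of -0.79 was past the fold threshold, but the arrays overlapped and the adjusted p in limma was 0.659. Its promoter, searched in the same way, held 1 match to the ERSE letters, 105 bases before the start. Hyou1, a nucleotide exchange factor for Hspa5, had a difference of 0.17 on its brightest probe, and of 0.07 to 0.27 when 1 array was left out.

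None of 12 protein disulfide isomerases and oxidases was called (median -0.03). Prdx4, a peroxiredoxin of the ER encoded on the X chromosome, had 9.12, 9.00, 9.04 and 9.10 against 9.19, 9.43, 9.43 and 9.36. The arrays did not overlap, but its difference of -0.29 was under the fold threshold and had an adjusted p of 0.358 in limma. Pdia6 had 0.16. Of the 16 genes of N-glycan transfer, trimming and the calnexin cycle in which UGGT works, again 0 were called (median 0.0051), the largest differences being -0.20 for the mannosidase-like Edem3 and 0.10 for the cargo lectin Lman1. That of Edem3 rested on array 2 labelled Mrp4-null, the dimmest of the 8, without which it was -0.00092.

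The 15 genes of ER-associated degradation had 0 calls and a median of 0.0021. Derl3, a channel component of that route, had 6.71, 6.41, 6.41 and 6.52 against 6.30, 6.21, 6.23 and 6.12. Its difference was 0.30 with an adjusted p of 0.439 in limma, and 0.19 with normexp. The lectin Erlec1 had -0.26. The 12 genes of the list of sensors and other factors of the response likewise had 0 calls, with 3 of 12 higher and a median of -0.06. Creb3l2 (-0.22) and the protease gene Mbtps2 (-0.19), which lies on the X chromosome, had the largest differences, that of Creb3l2 being -0.14 without array 1 labelled Mrp4-null and -0.08 with normexp.

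**Figure D4:**
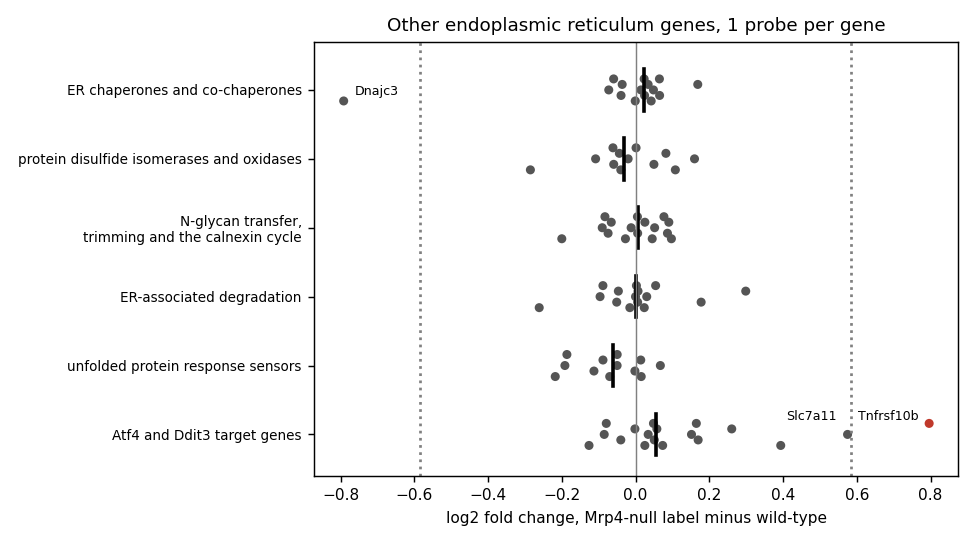
Fitted log2 difference (arrays labelled Mrp4-null minus wild-type, horizontal axis) of each gene of the 6 lists by its brightest probe, 1 point per gene; black bars mark the median of each list, dotted lines a fold change of 1.5, and red the 1 called gene. The medians lie between -0.06 and 0.05, and Tnfrsf10b (0.80) and Dnajc3 (-0.79) are the points outside the dotted lines.

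Markers of other cells that a dissected retina can hold were read beside these values. The mean log2 signal of 8 lens markers, 7 of which were above background on all arrays, was 6.34, 5.99, 7.32 and 8.44 under the Mrp4-null label against 8.75, 9.70, 7.24 and 8.15 in wild-type samples. Lens was the list with the largest difference between genotypes, with group means of 7.02 ± 1.1 against 8.46 ± 1.0 (SD, n = 4), lower under the Mrp4-null label. For 6 of 7 pigment epithelium markers that were retained it was 7.60 to 8.08 against 7.46 to 8.10, for 3 of 4 blood markers 10.13 to 11.12 against 10.09 to 11.08, and for 5 of 6 myeloid markers 8.53 to 9.65 against 8.70 to 8.80. The 5 Muller glia markers gave 12.73 to 13.01 against 12.88 to 13.06, and the 3 of 5 skeletal muscle markers that were retained 6.08 to 6.46 against 6.12 to 6.36. No marker was called by limma, and the ranges of the genotypes overlapped in every list. The paper's own list of differing genes, by the LPE test, holds the lens markers Bfsp1 and Lim2 as lower in Mrp4-null retinas. The part of any of these cells in the Uggt2 values was not tested.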

How the data were processed

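RNA of 8 retina samples was read on one-color Agilent arrays. The authors deposited the scanner output, in which Agilent Feature Extraction 11.0.1.1 had subtracted background and spatial trend from every processed signal intensity, with no normalization between arrays. A second deposited table holds the same processed signal as a mean per probe, without log2. Control and outlier spots (78 to 143 per array) were left out, log2 signals were averaged per probe, and a probe was retained when well above background on all measured arrays of a genotype, at least 3 there and 2 in the other. Retained values were quantile normalized and compared with lmFit and eBayes (limma 3.58.1, R 4.3.3), with genotype as the only term. The methods' LPE test was rewritten for this work with 100 intensity bins. Correlations used scipy 1.17.1. The code was tested on simulated data. Names came from RefSeq accessions (GRCm38.p6, 32994 probes matched), every probe was kept apart, and the array design carries another build, so only promoters have coordinates. Members and lists were chosen with earlier results of these data known. Named genes were all members, each list's called genes and 2 largest differences by brightest probe, the 5 probes most like each Uggt2 probe, Abcc4, and the neighbours of Uggt2. The number of arrays limits the precision. Alternatives were other normalizations, background correction, filters, outlier spots kept, the deposited table, other tests, no fold threshold, the sample number as a block, and each array left out. Other probes of a gene in the relations with Hspa5 were added after seeing the data.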

Additional observations from a re-analysis of the deposited data

Results flagged for a closer look

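In 5 of 76 groups of 4 arrays screened, 1 array stood apart from the other 3, by a gap to the nearest that was past Dixon's critical share of the range of the group. Chance gives about 1 in 20 such groups. In Canx A_55_P2798010, wild-type array 1 was at 14.50 and the others at 13.96 to 14.00 (gap 0.933 of the range). For Erlec1 A_66_P124049, array 2 labelled Mrp4-null was at 8.92 against 9.33 to 9.38 (0.881). Xbp1 A_55_P2739653 had wild-type array 4 at 9.58 against 9.30 to 9.34 (0.863). In Uggt2 A_52_P398099, array 1 labelled Mrp4-null was at 7.53 against 7.68 to 7.71 (0.856), farther from the wild-type arrays than the others. Hspa5 A_55_P2617149 had wild-type array 1 at 10.77 against 11.03 to 11.08 (0.839).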

How the results depend on the processing

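The 3 Uggt2 probes kept their direction under every alternative run. These probes were chosen by this comparison, so their calls under the alternatives describe them only. With normexp, A_55_P2032024 was at -0.76 in place of -1.15, A_52_P398099 at -0.51, and A_52_P297773 at 0.50, under the fold threshold and not called, so that 1 of the 19 probes was past 1.5-fold instead of 3. Its call was also lost without a filter on dim probes (0.64) and by the LPE test (0.64), so each of these 3 alternatives called 1 member probe. Intensity trend with robust variances called A_52_P398099 as well (-0.64). Leaving out 1 array gave 0.57 to 0.68 for A_52_P297773, -0.73 to -0.58 for A_52_P398099, which was called without wild-type array 2, and -1.24 to -1.10 for A_55_P2032024. It gave 1 to 2 called member probes, 0 to 1 called list genes and 117 to 188 called probes in all, with counts of 131, 129 and 117 without wild-type arrays 2, 3 and 4. Without a filter on dim probes or by the LPE test 0 list genes were called. Over 288 values of the other 16 member probes under the alternatives, 28 changed sign, 0 moved by more than 1 SD and 0 were called, from -0.45 to 0.21. The number of relations of Hspa5 that passed rose from 0 to 1 with the 75th percentile shift and to 1 with cyclic loess. Both times it was Canx by its brighter probe. Deviations from the genotype means are not counted, because the permutation test is not exact for them. With the other Canx probe, chosen after seeing the data, the relation was 0.32 in place of -0.80.

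With the sample number as a block, 71 probes, 0 member probes and 0 list genes were called, and the differences of 0.64 for A_52_P297773 and -1.15 for A_55_P2032024 lost their calls. Correlations of same-numbered deviations from the genotype means were -0.29, -0.69, 0.03 and 0.41. Whether the numbers pair the samples was not tested, and neither the labels nor the methods state it. The cause of these changes was not tested. Naming probes by a gene name column of the scanner files was not run, since the columns used here name probes by accession.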

Other observations

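Array 2 labelled Mrp4-null, which had the lowest 75th percentile of signal, also held the lowest of the 8 values of Pdia4 (8.81), Hsp90b1 (14.24), Dnajc3 (7.35) and the brightest Edem3 probe (8.91). Uggt1 A_51_P236775 was highest there, at 10.53. The part of the dimmer signal in these values was not tested. Among list genes chosen after their values were seen, the glutathione-degrading enzyme gene Chac1, a known Atf4 target, had a log2 difference of 0.26 and an adjusted p of 0.391 in limma.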
